A study of Mus musculus with 51 samples.

Results

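The lysosomal hydrolases and membrane proteins described here are 43 listed genes: 11 proteases, 12 glycosidases, 5 sulfatases, 4 lipid hydrolases, 7 membrane proteins, 2 lipid cofactors (Npc2 and Psap) and 2 regulators of the lysosome and autophagy (Tfeb and Sqstm1). Every probe set annotated with exactly 1 gene symbol that is on this list was taken, which gave 72 of 22626 probe sets for 41 genes. Cd63 and Arsb had no such probe set. A probe set is a group of short probes on the array that reads 1 stretch of transcript. In the table that holds most of the arrays 62 of the 72 were bright enough to be tested, and they stood for 40 genes, since Npc1 was too dim. Each gene is given by the tested probe set with the highest mean unless another is named.

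Lysosomes are acidic organelles that break down proteins, glycans, sulfated polysaccharides and lipids delivered by endocytosis and autophagy. Their enzymes are made in the endoplasmic reticulum, tagged with mannose 6-phosphate in the Golgi and carried to the lysosome, where the proton pump of the lysosomal membrane keeps the low pH they need. The kinase complex mTORC1 sits on the lysosomal surface, and in cultured human cells it phosphorylates TFEB, a transcription factor that switches on many lysosomal genes, and holds it in the cytoplasm. The kinase AKT1 signals towards mTORC1.

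The arrays read RNA of the ventral prostate of FVB mice aged 8 to 10 weeks, in a study of what tells exposure to the drug apart from a response to it. RAD001 (everolimus), an inhibitor of mTOR, was given to AKT1 transgenic mice (FVB-AKT1) for 12 h (5 arrays), 48 h (4 arrays), 6 d (3 arrays), 9 d (4 arrays) or 15 d (6 arrays). Transgenic mice on placebo gave 4, 5, 1, 1 and 7 arrays at those times, and wild type FVB mice on placebo gave 4, 4 and 3 arrays at 12 h, 48 h and 15 d. The sources used here do not give the drug's dose, the promoter of the transgene or the cells that express it. No wild type mouse in these data received RAD001.

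The arrays of 12 h, 48 h and 15 d form a table of 42 arrays and those of 6 d and 9 d a table of 9. The tables are listed under separate array platforms, and each was tested apart. Levels are deposited intensities, which compare arrays for 1 probe set and not genes with each other. Differences are log2 values ± standard error (SE) from limma, and a gene is called higher or lower at a Benjamini-Hochberg adjusted p under 0.05 over all probe sets tested. Precision is limited by the number of arrays, and the p-values rest on the spread among arrays that the titles number as biological replicates. The median intensity of an array was 91.6 to 109.3 in the larger table, and 98.1 to 110.4 in the other. Of the Akt1 probe sets, 1425711_a_at was higher in transgenic glands under placebo by 0.88 ± 0.23 and 1416657_at differed by 0.17 ± 0.08 (adjusted p = 0.0936). The sources used here do not say whether either detects the transgene. None of the 14 measured markers of prostate luminal cells had a median intensity under 16 over all arrays of either table. In 4 arrays over 500 probe sets were listed at 0, namely RAD001 replicate 1 at 6 d, RAD001 replicate 3 at 9 d, and both replicate 8 and replicate 9 of the transgenic placebo group at 15 d. By their scores on the leading principal component the 15 d arrays were split into 2 sets, which the labels do not name. Set A holds all 3 wild type, 2 placebo and 2 RAD001 arrays, and set B holds 5 placebo and 4 RAD001 arrays. Scores ran from -6.9 to 12.6 in set A and from 36.3 to 58.3 in set B, except transgenic placebo replicate 9 at 88.3. The gap below replicate 9 was wider than that between the sets, and the search for the split left it out.

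Promoter sequence was available for 38 of the 43 genes (RefSeq, build GRCm38.p6, 250 bases before to 50 after the annotated start, so that the last bases are the beginning of exon 1). Ctsb, Ctsh, Galns, Asah1 and Npc1 had no entry. The windows were searched on both strands for CACGTG, which reads the same on either strand, and for TCACGTG, a longer form that contains it and that TFEB is known to bind in human cells. At least 1 CACGTG was found for 13 of the 38 genes (34.2%), against 2187 of all 27025 genes with a promoter (8.1%). TCACGTG was found for 12 of the 38 (31.6%), against 1160 of all genes (4.3%). By class, CACGTG was present for 4 of 9 proteases, 4 of 12 glycosidases, 2 of 4 sulfatases, 3 of 6 membrane proteins and none of the lipid hydrolases, cofactors and regulators. A match describes these letters and says nothing of binding in the prostate. The promoters of 4 genes on which the results below turn are shown, a membrane protein, a protease and a glycosidase with matches and Gusb, a glycosidase called between genotypes at each time and under RAD001 from 48 h on, without one, with every match in capitals.
Lamp1 (chr8:13158911-13159210, plus strand): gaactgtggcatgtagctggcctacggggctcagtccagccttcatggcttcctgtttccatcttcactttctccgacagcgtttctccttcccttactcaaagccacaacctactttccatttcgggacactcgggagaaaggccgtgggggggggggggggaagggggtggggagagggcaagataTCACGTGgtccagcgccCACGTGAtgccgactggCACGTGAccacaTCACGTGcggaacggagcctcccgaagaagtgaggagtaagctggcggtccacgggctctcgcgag
Ctsd (chr7:142387778-142388077, minus strand): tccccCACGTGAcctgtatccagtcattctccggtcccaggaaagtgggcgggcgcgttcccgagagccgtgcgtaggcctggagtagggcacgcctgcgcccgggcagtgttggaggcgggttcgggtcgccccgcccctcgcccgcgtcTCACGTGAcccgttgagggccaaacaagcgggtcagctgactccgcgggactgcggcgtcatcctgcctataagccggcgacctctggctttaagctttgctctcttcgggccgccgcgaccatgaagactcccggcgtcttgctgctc
Gla (chrX:134600956-134601255, minus strand): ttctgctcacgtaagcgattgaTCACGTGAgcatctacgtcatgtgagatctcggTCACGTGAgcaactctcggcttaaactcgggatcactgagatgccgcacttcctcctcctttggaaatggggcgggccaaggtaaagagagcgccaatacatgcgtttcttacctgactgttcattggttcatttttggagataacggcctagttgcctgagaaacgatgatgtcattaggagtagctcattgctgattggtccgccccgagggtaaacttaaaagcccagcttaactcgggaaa
Gusb (chr5:130003000-130003299, minus strand): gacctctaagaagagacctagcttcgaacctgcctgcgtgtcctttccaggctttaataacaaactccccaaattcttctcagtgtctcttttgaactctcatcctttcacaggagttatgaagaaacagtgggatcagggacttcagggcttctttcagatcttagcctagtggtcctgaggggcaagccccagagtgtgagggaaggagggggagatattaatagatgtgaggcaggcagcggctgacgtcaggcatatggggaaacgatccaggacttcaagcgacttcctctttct
Lamp1 had 4 matches, Ctsd and Gla had 2 each, and Gusb had none. Neu1, Hexa, Fuca2 and Lamp2, whose differences are given below, had none in this window. Of the 16 members called higher in transgenic glands that have a promoter entry, 7 had a CACGTG, and so had 6 of the 20 other tested members with an entry.

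The comparison of genotypes asked how transgenic and wild type glands differed under placebo. In the average of the 3 times of the larger table, 18 of the 40 members were higher in transgenic glands and 3 were lower, where 14.1% of all 8496 genes were called higher and 19.0% lower. The median difference was 0.17 over the members and -0.05 over all genes. Proteases and glycosidases held 13 of the 18 called higher. Of 11 proteases 6 were higher and 1 was lower (median 0.35), and of 12 glycosidases 7 were higher and none was lower (median 0.30). Of 5 tested membrane proteins 3 were higher and 1 was lower (median 0.33). No sulfatase of 4 was called (median 0.04), and of 4 lipid hydrolases 2 were higher and 1 was lower (median 0.12). Neither the cofactors nor the regulators were called by their brightest probe sets.

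Markers of other cells moved with the genotype in the same arrays, where 14.1% of all genes were called higher and 19.0% lower. Of 12 tested smooth muscle markers 10 were lower in transgenic glands, and the summed intensity of the 13 measured at 48 h had a median of 7582 (6400 to 8975) in transgenic glands on placebo, against 13653 (11580 to 15689) in wild type glands. Of 10 fibroblast markers 6 were lower and of 7 basal cell markers 4 were lower, while 6 of 14 luminal markers were higher, among them the keratin gene Krt8 at 0.91 ± 0.09. The summed luminal intensity at 48 h had a median of 44117 in transgenic and 35757 in wild type glands. Macrophages are rich in lysosomes, and of 10 tested macrophage markers none was higher and 1, Fcer1g, was lower. The part of cell composition in the lysosomal differences was not tested, and in whole tissue fewer cells of a type and less RNA per cell cannot be told apart.

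Among the proteases the asparaginyl endopeptidase gene Lgmn, whose product also processes cathepsins, had the largest difference (1.18 ± 0.13, a 2.27-fold difference, adjusted p = 4.33e-09). At 48 h it had intensities of 201, 219, 259, 236 and 189 in transgenic placebo glands, against 99.9, 140, 136 and 96.6 in wild type glands. The groups did not overlap there, at 12 h or at 15 d. The aspartic protease gene Ctsd was higher by 0.78 ± 0.09 (adjusted p = 6.9e-09). Its intensities at 48 h were 3494, 3252, 3312, 3237 and 2591 in transgenic placebo glands, against 1602, 1609, 1579 and 1477 in wild type glands. All transgenic arrays were above all wild type arrays at 12 h and 48 h, and at 15 d placebo replicate 9, at 1573, lay below the wild type arrays. The cysteine protease genes Ctsl (0.68 ± 0.09) and Ctsb (0.49 ± 0.07) and the carboxypeptidase genes Ctsa (0.39 ± 0.07) and Ctsz (0.35 ± 0.09) were also higher. Ctsl at 48 h was at 2068, 2087, 2152, 2071 and 1754 in transgenic placebo glands, against 1327, 1301, 1083 and 1194 in wild type glands. Ctsb at 48 h was at 1676, 1655, 1743, 1823 and 1600 in transgenic placebo glands, against 1336, 1344, 1034 and 1118 in wild type glands. Neither pair of groups overlapped. Ctsa encodes the protective protein that keeps beta-galactosidase and neuraminidase stable. Ctsk, a collagen-degrading cathepsin best known from osteoclasts, was lower by 0.30 (SE 0.08, adjusted p = 0.00224). Ctsc (0.16), Ctss (0.14), Ctsh (0.02) and Tpp1 (0.00) were not called.

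Glycosidases trim sugars from glycoproteins, glycolipids and glycosaminoglycans. Gusb, the beta-glucuronidase, was 3.71-fold higher in transgenic glands (1.89 ± 0.16, adjusted p = 2.09e-11), and Neu1, the neuraminidase that removes sialic acid, was 3.66-fold higher (1.87 ± 0.38, adjusted p = 0.000187). At 12 h Gusb had intensities of 760, 774, 324 and 707 in transgenic placebo glands, against 233, 119, 137 and 128 in wild type glands. Neu1 at 48 h was at 1200, 1231, 1132, 1282 and 809 in transgenic placebo glands, against 228, 203, 245 and 230 in wild type glands. For neither gene did the groups overlap at 12 h or 48 h, and at 15 d they were apart for Gusb. At 15 d Neu1 ranged from 752 to 901 in 6 of 7 transgenic placebo arrays and was listed at 0 in replicate 9, against 196, 260 and 236 in wild type glands. With that array its 15 d difference was 1.05 ± 0.66 (adjusted p = 0.253), and without both placebo arrays that hold many zeros it was 1.86 (adjusted p = 3.92e-05).

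Hexa, which encodes the alpha subunit of beta-hexosaminidase, was higher by 0.91 ± 0.10. At 48 h its intensities were 1191, 966, 1198, 1086 and 855 in transgenic placebo glands, against 510, 532, 459 and 479 in wild type glands. Fuca2, a fucosidase, was higher by 0.79 ± 0.05 (adjusted p = 2.06e-13), and Gla, the alpha-galactosidase, by 0.73 ± 0.10. Fuca2 at 48 h was at 655, 725, 657, 546 and 632 in transgenic placebo glands, against 399, 409, 381 and 478 in wild type glands. The groups were apart for Hexa and Fuca2 at each of the 3 times. Smaller rises passed the test for the alpha-mannosidase gene Man2b1 (0.33 ± 0.07) and the lysosomal fucosidase gene Fuca1 (0.26 ± 0.07). Manba (0.10), Gaa (0.08), Idua (0.03), Glb1 (-0.19) and Naglu (-0.24) were not called. For Naglu 3 of 7 transgenic placebo arrays of 15 d, replicates 4, 6 and 9, were listed at 0 and the other 4 lay between 299 and 483, against 244 to 266 in wild type glands.

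The sulfatases Galns (0.18), Sgsh (0.11), Ids (-0.04) and Arsa (-0.14) were not called by their brightest probe sets. Of the lipid hydrolases, Asah1, the acid ceramidase, was higher by 0.52 ± 0.10 and Lipa, the acid lipase, by 0.28 ± 0.07, while Smpd1, the acid sphingomyelinase, was lower by 0.24 (SE 0.07, adjusted p = 0.00563). Asah1 at 48 h was at 813, 839, 826, 561 and 634 in transgenic placebo glands, against 476, 537, 431 and 458 in wild type glands. Smpd1 at 48 h was at 180, 149, 149, 155 and 173 in transgenic placebo glands, against 218, 213, 241 and 228 in wild type glands. In neither case did the groups overlap. The enzymes on either side of ceramide, which Smpd1 makes and Asah1 splits, thus had calls of opposite sign. Ppt1, the palmitoyl-protein thioesterase, differed by -0.03.

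The membrane proteins LAMP1 and LAMP2 are heavily glycosylated and line the inner face of the lysosomal membrane, and LAMP2A is the receptor of chaperone-mediated autophagy. Lamp2 was higher by 0.53 ± 0.06 (adjusted p = 2.29e-09) and Lamp1 by 0.33 ± 0.04 (adjusted p = 4.52e-08). At 48 h Lamp2 was at 1448, 1571, 1623, 1646 and 1575 in transgenic placebo glands, against 977, 1041, 985 and 1096 in wild type glands. Lamp1 at 48 h was at 3231, 3178, 3096, 3207 and 3137 in transgenic placebo glands, against 2232, 2323, 2212 and 1874 in wild type glands. The groups did not overlap for either gene at 48 h. Mcoln1, a calcium-releasing channel, was higher by 0.36 ± 0.08. Scarb2, the receptor that carries glucocerebrosidase to the lysosome, was lower by 0.37 (SE 0.06, adjusted p = 1.66e-05), and Cln3 differed by 0.02 ± 0.11. Scarb2 at 48 h was at 870, 832, 774, 794 and 892 in transgenic placebo glands, against 1124, 1250, 1115 and 1111 in wild type glands, so that all transgenic arrays were the lower ones. Of the regulators, Sqstm1, the cargo receptor p62 of autophagy, differed by -0.19 ± 0.08 (adjusted p = 0.0691) and Tfeb by 0.27 ± 0.35. Tfeb was listed at 0 in wild type replicate 1 of 12 h.

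**Figure D1:**
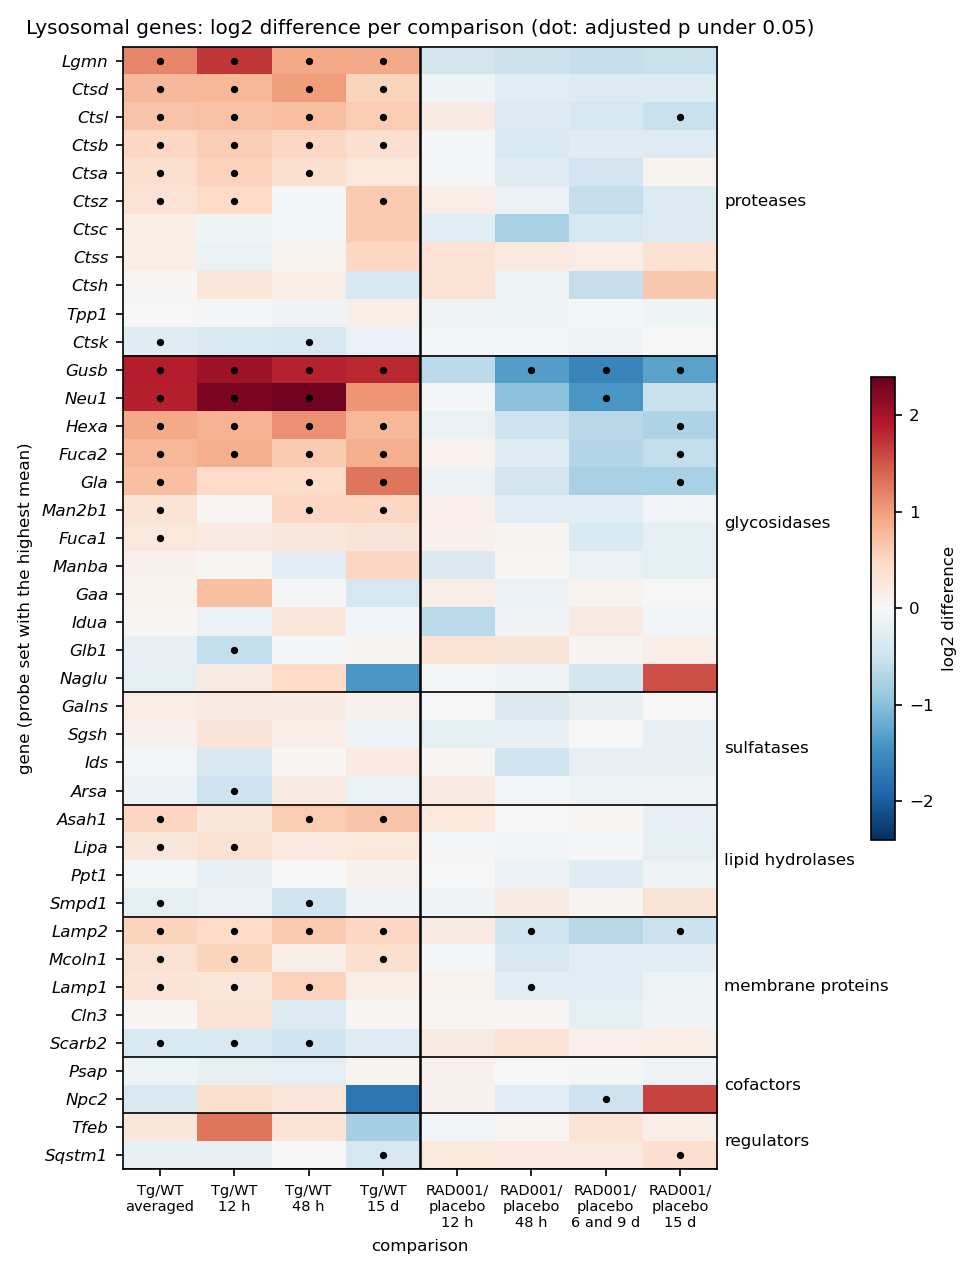
Log2 difference of each of the 40 tested members (rows, grouped by class) in 8 comparisons (columns), with red for higher and blue for lower in the group named before the slash, and a dot for an adjusted p under 0.05. The left 4 columns (transgenic over wild type under placebo) are mostly red among proteases and glycosidases, and the right 4 (RAD001 over placebo in transgenic glands) are mostly blue from 48 h on, with Gusb the darkest called cell at 48 h, 6 and 9 d and 15 d.

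The genotype difference was then taken at each time. At 12 h 14 members were higher and 3 lower, where 9.43% and 11.1% of all genes were called. At 48 h 14 were higher and 3 lower (background 12.0% and 14.5%), and at 15 d 13 were higher and 1 was lower (background 9.22% and 10.8%). The genes called higher at each of the 3 times were the proteases Ctsb, Ctsd, Ctsl and Lgmn, the glycosidases Hexa, Gusb and Fuca2 and the membrane protein Lamp2. Those lower at 12 h were Glb1, the beta-galactosidase (-0.60 ± 0.17), Arsa and Scarb2. At 48 h Ctsk, Smpd1 and Scarb2 were lower, and at 15 d Sqstm1 was (-0.41 ± 0.14, adjusted p = 0.0333). The Sqstm1 call was lost without any 1 of wild type replicates 1 and 3 and transgenic placebo replicates 4, 8 and 9 of 15 d (adjusted p up to 0.161), and in set A the difference was -0.16. At 15 d Ctsd lost its call without wild type replicate 1 (adjusted p = 0.0565), Lgmn without wild type replicate 3 (0.0642), and Ctsb without wild type replicate 1 or 3 or transgenic placebo replicate 8 (up to 0.169). The 48 h call of Ctsk was lost without any 1 of wild type replicates 1 and 4 and transgenic placebo replicates 1 and 3 (up to 0.0907). The 12 h call of Scarb2 was lost without any 1 of wild type replicate 2 and transgenic placebo replicates 2 and 4 (up to 0.097). The 15 d count of 14 was 5 with the array set as a block and 6 in the arrays of set A alone, which keeps 2 of the 7 placebo arrays. Gusb, Gla, Fuca2 and Lamp2 held their 15 d calls in set A, at 1.64, 0.99, 0.84 and 0.51.

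An F-test asked whether the genotype difference varied with time, and it called 5 members (12.5%), where 20.8% of all genes were called. The Gla difference was 0.46 ± 0.17 at 12 h, 0.44 ± 0.17 at 48 h and 1.28 ± 0.17 at 15 d (adjusted p = 0.0148 for the change with time). Its 15 d intensities ran from 141 to 239 (median 179) in transgenic placebo glands, against 70.4, 66.5 and 80.4 in wild type glands. The Lamp1 difference was 0.29 ± 0.07, 0.56 ± 0.07 and 0.14 ± 0.07 at 12 h, 48 h and 15 d (adjusted p = 0.00825). Arsa, which desulfates sulfatides, was at -0.49 ± 0.13, 0.22 ± 0.12 and -0.16 ± 0.13 (adjusted p = 0.0151), so that the sign at 48 h was opposite to the others. At 12 h it was at 209, 189, 142 and 180 in transgenic placebo glands, against 255, 280, 238 and 230 in wild type glands, without overlap. At 48 h it was at 157, 190, 243, 220 and 223 in transgenic placebo glands, against 178, 194, 158 and 173 in wild type glands, and the groups overlapped. Ctsz (0.48, -0.04 and 0.62 at the 3 times, adjusted p = 0.0393) and Man2b1 (0.05 after rounding) were the other called genes, and each lost the call when any of several arrays was left out, with adjusted p up to 0.0852 and 0.114. The call of Gla was lost in set A (adjusted p = 0.199) and with the replicate number or array set as a block (0.118 and 0.174). In place of 5 members, 3 were called when any 1 of 9 arrays was left out, among them wild type replicates 1, 2 and 4 of 48 h.

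RAD001 was compared with placebo in transgenic glands of the same time. After 12 h no member was called, where 0.659% of all genes were higher and 0.753% lower, and 3 members had an unadjusted p under 0.05 in limma. With limma's array weights 3 members were called, and the share of all genes called in that fit is not given here. Gusb differed by -0.63 ± 0.27 (adjusted p = 0.308), with intensities of 482, 430, 431, 647 and 162 in RAD001 glands and 760, 774, 324 and 707 in placebo glands. The groups overlapped through placebo replicate 3, and the other placebo arrays were all above the RAD001 arrays. Neu1 differed by -0.03 ± 0.64 and Lamp2 by 0.19 ± 0.09 at that time.

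After 48 h 3 members were lower and none was higher, where 1.37% of all genes were lower and 1.95% higher. The 3 were Gusb, Lamp1 and Lamp2. The median difference was -0.15 over the members and 0.01 over all genes, and 29 of the 40 were below 0. Gusb was 2.52-fold lower (-1.33 ± 0.27, adjusted p = 0.00357), with intensities of 284, 228, 236 and 185 in RAD001 glands, 602, 593, 662, 626 and 449 in transgenic placebo glands and 152, 191, 165 and 146 in wild type glands. The RAD001 arrays were all below the placebo arrays of their genotype and overlapped the wild type arrays. Lamp2 was at 1083, 1272, 1097 and 1092 in RAD001 glands, against 1448, 1571, 1623, 1646 and 1575 in placebo glands, a difference of -0.47 ± 0.09 (adjusted p = 0.00337). Lamp1 was at 2622, 2645, 2594 and 2645 in RAD001 glands, against 3231, 3178, 3096, 3207 and 3137 in placebo glands, a difference of -0.27 ± 0.07 (adjusted p = 0.0181). For both membrane proteins the groups were apart. The Lamp1 call was lost under quantile normalisation (-0.16, adjusted p = 0.0769) and without RAD001 replicate 5 (adjusted p = 0.0512), and 5 members were called without RAD001 replicate 1.

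Neu1 at 48 h was at 506, 781, 549 and 455 in RAD001 glands, against 1200, 1231, 1132, 1282 and 809 in placebo glands. The groups did not overlap, but the difference of -0.99 ± 0.64 did not pass the test (adjusted p = 0.472). In the fit without the placebo arrays of 15 d that hold many zeros, 1 of which lists Neu1 at 0, the 48 h difference was -0.99 with an adjusted p of 0.0126. Hexa (-0.49 ± 0.17), Lgmn (-0.51 ± 0.22), Ctsc (-0.77 ± 0.26) and Fuca2 (-0.29 ± 0.09) were not called, with adjusted p between 0.0657 and 0.207. Scarb2, which was lower in transgenic glands, was at 0.32 ± 0.11 (adjusted p = 0.0854).

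At 6 d and 9 d, averaged because each day has 1 placebo array, 3 members were lower and none was higher, where 0.559% of all genes were lower and 0.280% higher. Gusb was 3.01-fold lower (-1.59 ± 0.18, adjusted p = 0.00771). It was at 161, 211 and 198 in RAD001 glands of 6 d against 546 in the placebo gland, and at 160, 151, 156 and 208 in RAD001 glands of 9 d against 524. Neu1 was lower by 1.40 (SE 0.21, adjusted p = 0.0238), with 244, 356 and 301 in RAD001 glands against 752 in the placebo gland at 6 d, and 293, 215, 234 and 334 against 726 at 9 d. Every RAD001 array lay below the placebo array of its day for these glycosidases. Npc2, the soluble protein that hands cholesterol to NPC1, was lower by 0.49 (SE 0.08, adjusted p = 0.0404), a call lost without any 1 of the 7 RAD001 arrays. The Neu1 call was lost without RAD001 replicate 3 of 6 d (adjusted p = 0.0691) and without RAD001 replicate 1 of 9 d (0.0522), each of which left 1 call. With either day alone no member passed, and Gusb was then at -1.53 (adjusted p = 0.136) and -1.65 (0.0513). Ctsh (-0.57 ± 0.12), Lamp2 (-0.67 ± 0.14), Fuca1 (-0.36 ± 0.07), Hexa (-0.66 ± 0.13) and Fuca2 (-0.71 ± 0.14) were not called, with adjusted p between 0.0725 and 0.0905. Lamp2 was at 984, 1178 and 968 in RAD001 glands of 6 d against 1514 in the placebo gland, and at 1117, 1014, 812 and 1019 in RAD001 glands of 9 d against 1709. The placebo arrays of these days stand alone, and their spread is taken from the RAD001 arrays.

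After 15 d 6 members were lower and 1 was higher, where 3.25% of all genes were lower and 2.45% higher. Those lower were the protease gene Ctsl, the glycosidase genes Hexa, Gusb, Gla and Fuca2 and the membrane protein gene Lamp2, each of which was called higher in transgenic than in wild type glands, a comparison that shares these placebo arrays. The median difference was -0.13 over the members and 0.02 over all genes. Gusb ran from 167 to 324 (median 201) in RAD001 glands and from 427 to 679 (median 485) in placebo glands, and it was at 133, 170 and 139 in wild type glands. The difference was -1.29 ± 0.22 (adjusted p = 0.000295), and the RAD001 arrays overlapped only with wild type. Fuca2 ran from 352 to 433 (median 401) in RAD001 glands and from 511 to 679 (median 601) in placebo glands, a difference of -0.60 ± 0.08 (adjusted p = 1.6e-06). Lamp2 ran from 955 to 1326 (median 1165) in RAD001 glands and from 1404 to 2013 (median 1586) in placebo glands, a difference of -0.51 ± 0.08 (adjusted p = 5.39e-05). The groups were apart for Fuca2 and Lamp2 too.

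Hexa at 15 d ran from 473 to 718 in RAD001 glands and from 788 to 1459 in placebo glands (-0.75 ± 0.14, adjusted p = 0.000669), without overlap. Gla ran from 83.1 to 147 in RAD001 glands and from 141 to 239 in placebo glands (-0.77 ± 0.14, adjusted p = 0.000499), with 1 RAD001 array above the lowest placebo array. Ctsl ran from 1033 to 1752 in RAD001 glands and from 1735 to 2433 in placebo glands (-0.53 ± 0.13, adjusted p = 0.00877), again with 1 RAD001 array inside the placebo range. Within set A, with 2 arrays of each treatment, the differences were -1.22 for Gusb, -0.74 for Gla, -0.58 for Hexa, -0.54 for Fuca2, -0.28 for Ctsl and -0.73 for Lamp2, and Lamp2 alone was called. Within set B they were -1.30, -0.75, -0.81, -0.63, -0.66 and -0.40, and all 6 were called, as was Naglu (2.33), which has 3 placebo arrays listed at 0. Leaving out the arrays with many zeros from set B left 3 members called, Fuca2 (-0.61), Neu1 (-1.38) and Naglu (2.71). The differences of Gusb (-1.18), Hexa (-0.64), Gla (-0.62), Ctsl (-0.66) and Lamp2 (-0.28) then had adjusted p between 0.0533 and 0.0797.

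Neu1 at 15 d ran from 207 to 507 (median 326) in RAD001 glands, and from 752 to 901 in 6 placebo arrays beside the array listed at 0. It was not called with all arrays (-0.54 ± 0.53, adjusted p = 0.609). Without the arrays that hold many zeros it was lower by 1.35 (adjusted p = 0.000213). Npc2 by its brightest probe set, 1448513_a_at, was listed at 0 in placebo replicates 6 and 9 of 15 d, and the other 5 placebo arrays lay between 2900 and 3782, above the RAD001 range of 1979 to 2450. Its second probe set, 1416901_at, has no zeros and ran from 1430 to 1616 in RAD001 glands, from 2051 to 2560 in transgenic placebo glands and from 1506 to 1761 in wild type glands. That probe set was lower under RAD001 by 0.59 at 15 d (SE 0.07, adjusted p = 3.45e-07) and by 0.28 at 48 h (SE 0.08, adjusted p = 0.0457), and higher in transgenic than in wild type glands by 0.58 ± 0.05.

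Sqstm1, the 1 member called higher after 15 d, ran from 1314 to 1787 (median 1563) in RAD001 glands, against 693 to 1451 (median 1372) in placebo glands, a difference of 0.40 ± 0.11 (adjusted p = 0.029). The groups overlapped, and the lowest value was that of placebo replicate 9. The call was lost without any 1 of placebo replicates 4, 8 and 9 or RAD001 replicates 1, 2 and 6, with adjusted p up to 0.0753. It was also lost with array weights (0.21, adjusted p = 0.283) and with only the compared groups fitted (adjusted p = 0.263). Without the arrays that hold many zeros the difference was 0.23 (adjusted p = 0.161). Neither set A (0.30, adjusted p = 0.505) nor set B (0.42, adjusted p = 0.0568) gave the call by itself. Smpd1 was at 0.31 ± 0.10 (adjusted p = 0.0527). Tfeb differed by 0.16 ± 0.49, and its level split with the array sets: in RAD001 glands it was at 561 and 578 in 2 arrays and at 270 to 352 in the other 4, and in placebo glands at 458 and 565 in 2 arrays and at 242 to 304 in the other 5.

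**Figure D2:**
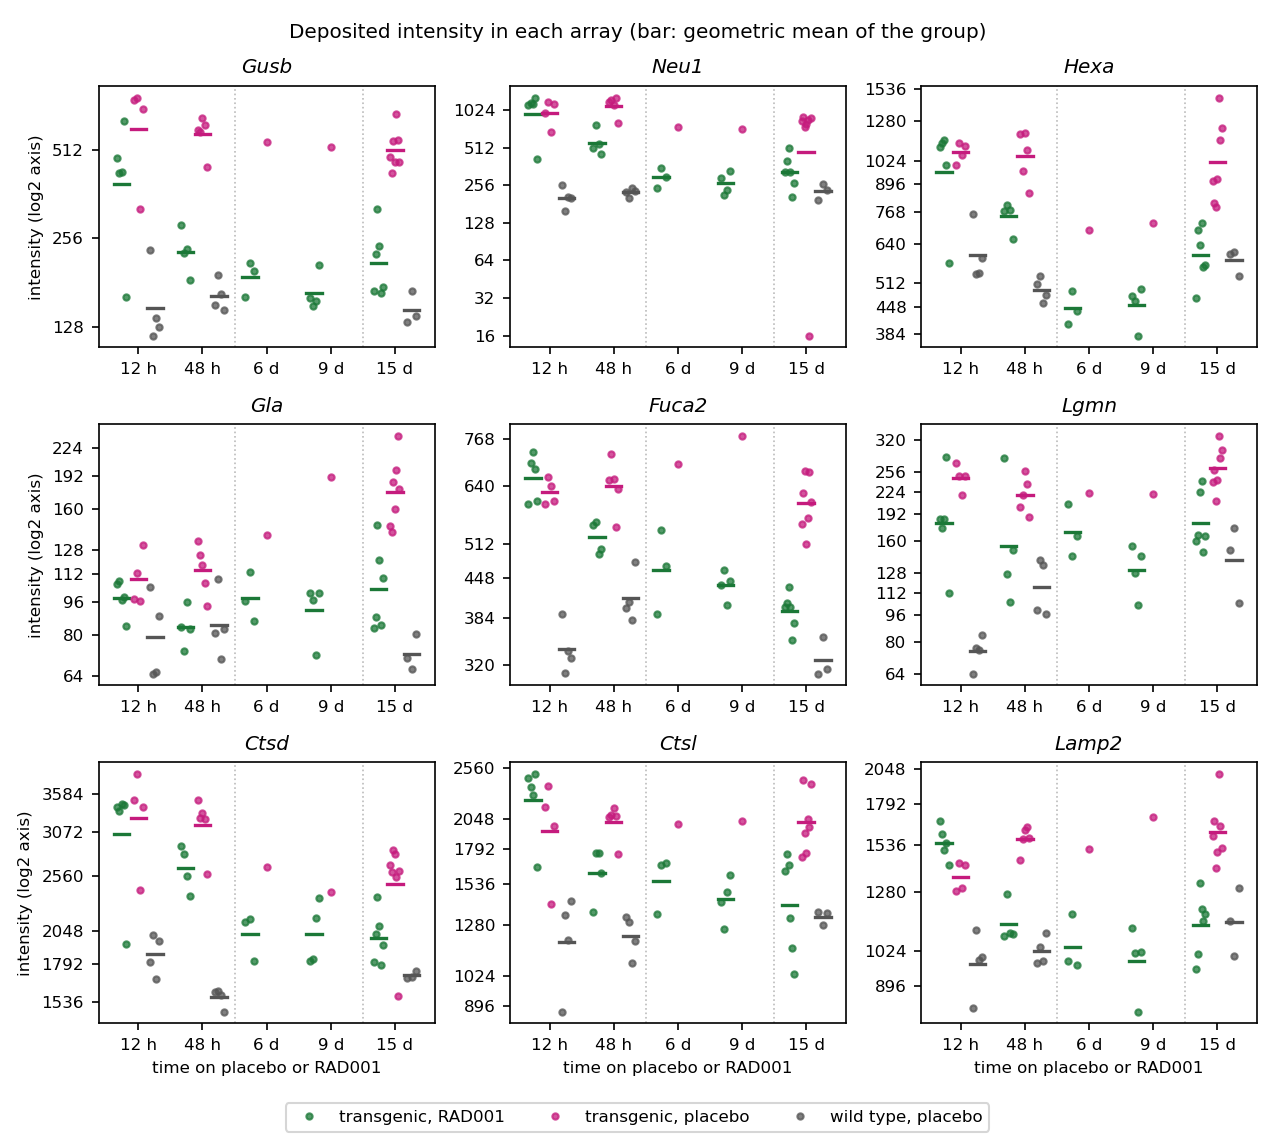
Deposited intensity (log2 axis) of 9 members in every array, by time, with RAD001-treated transgenic glands (green), transgenic glands on placebo (pink) and wild type glands on placebo (grey) and a bar at the geometric mean of each group with over 1 array. Values under 16 are drawn at 16, and dotted lines part the tables, which are listed under separate array platforms. For Gusb, Hexa, Fuca2 and Lamp2 all green points lie below the pink points at 15 d, and at 12 h they mix with them.

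Set side by side by class, the median RAD001 difference of the proteases was -0.04 at 12 h, -0.25 at 48 h, -0.42 at 6 and 9 d and -0.31 at 15 d. That of the glycosidases was -0.04, -0.21, -0.40 and -0.21. That of the membrane proteins was 0.09, -0.27, -0.27 and -0.13. The values of 6 and 9 d come from the smaller table, which is listed under another array platform. The class medians of proteases, glycosidases and membrane proteins were thus all below 0 from 48 h on, while calls were unevenly spread. Proteases had 1 call in all (Ctsl at 15 d), glycosidases had 1, 2 and 4 at 48 h, at 6 and 9 d and at 15 d, and membrane proteins had 2, 0 and 1. For Lgmn, the protease with the largest genotype difference, RAD001 glands at 48 h were at 283, 127, 106 and 150, against 201, 219, 259, 236 and 189 in placebo glands. RAD001 replicate 1 was above all placebo arrays and the others were below them. At 15 d Lgmn differed by -0.54 (adjusted p = 0.067) and Ctsd by -0.32 (0.121). No sulfatase or lipid hydrolase was called under RAD001 at any time by its brightest probe set, and of the other probe sets 1423141_at of Lipa was lower at 15 d (-0.43, adjusted p = 0.00248). The classes were not tested against each other.

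Cell markers also moved with RAD001. At 12 h, when no member was called, 1 of 12 smooth muscle markers was higher and 1 of 14 luminal markers was lower. Of all genes 0.659% were higher and 0.753% lower then. The summed smooth muscle intensity at 12 h ran from 9966 to 14367 in RAD001 glands and from 6915 to 9145 in placebo glands, without overlap. At 15 d 5 of 12 smooth muscle markers, 2 of 10 fibroblast markers, 2 of 7 basal markers and 1 of 10 macrophage markers were higher, and 1 of 14 luminal markers was lower. Of all genes 2.45% were higher and 3.25% lower at that time. The summed smooth muscle intensity had a median of 11691 (9541 to 13048) in RAD001 glands and 8140 (6319 to 10230) in placebo glands at 15 d. The summed luminal intensity had a median of 37528 (34995 to 40726) in RAD001 glands and 39835 (37687 to 41492) in placebo glands. At 48 h, where 1.95% of all genes were higher and 1.37% lower, 2 smooth muscle, 2 basal and 1 fibroblast marker were higher. Krt8 was then lower by 0.67 (SE 0.15). At 6 and 9 d the fibroblast gene Dcn was called higher, and no smooth muscle, basal, luminal or macrophage marker was called. Of all genes 0.280% were higher and 0.559% lower on those days. The summed smooth muscle intensity ran from 14025 to 17528 in RAD001 glands of 6 d against 13431 in the placebo gland, and from 14366 to 19728 in RAD001 glands of 9 d against 12219. Basal sums ran from 1995 to 3051 against 1689 at 6 d and from 1861 to 2468 against 1360 at 9 d, and every RAD001 array was above the placebo array of its day in both lists and in the fibroblast list. Luminal sums ran from 28814 to 33657 against 36469 at 6 d, all below the placebo array, and from 31804 to 37826 against 35424 at 9 d, on both sides of it. The part of these shifts in the lysosomal differences was not tested.

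Whether the RAD001 difference varied with time was tested over 12 h, 48 h and 15 d, and 2 members were called, where 0.388% of all genes were. Lamp2 was at 0.19 ± 0.09, -0.47 ± 0.09 and -0.51 ± 0.08 at those times (adjusted p = 0.0046). Fuca2 was at 0.08 ± 0.09, -0.29 ± 0.09 and -0.60 ± 0.08 (adjusted p = 0.00684). Both therefore lay near or above the placebo level at 12 h and below it later. The Fuca2 call was lost in the 15 d arrays of set A alone (adjusted p = 0.164). For Gusb the 3 differences were -0.63, -1.33 and -1.29, and the change with time was not called.

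RAD001-treated transgenic glands were then set against wild type glands on placebo. These differences share the wild type arrays with the genotype comparison, and each is given for its own groups. After 12 h 14 members were higher and 1 was lower in treated glands (8.60% and 8.29% of all genes). After 48 h 5 were higher and 2 lower (6.40% and 6.58%), and after 15 d none was called (0.753% and 0.742%). At 15 d 5 members had an unadjusted p under 0.05 in limma, and 6 were called with array weights. The share of all genes called in the weighted fit is not given here. Without RAD001 replicate 1 of 15 d 2 members were called, and without replicate 2 it was 1. By class, the 12 h calls higher than wild type were 6 proteases, 4 glycosidases, 3 membrane proteins and 1 lipid hydrolase, and the 48 h calls were 1, 2, 1 and 1. Among those of 12 h were Neu1 (2.23 ± 0.64), Lgmn (1.27 ± 0.22), Ctsl (0.90 ± 0.15) and Lamp1 (0.38 ± 0.07). The lipid hydrolase of 12 h, Asah1, lost its call without any 1 of wild type replicates 1, 2, 3 and 4 and RAD001 replicates 1, 2, 3 and 4 (adjusted p up to 0.101). The lower member of 12 h, Ctsk, lost it without any 1 of wild type replicates 1, 2 and 4 and RAD001 replicates 2, 3 and 4 (up to 0.142). Both calls were also lost with no filter on dim probe sets.

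Gusb in treated glands exceeded wild type by 1.40 ± 0.27 at 12 h, 0.50 ± 0.28 at 48 h and 0.53 ± 0.28 at 15 d, while placebo-treated transgenic glands exceeded it by 2.03, 1.84 and 1.81. Fuca2 in treated glands exceeded wild type by 0.95 ± 0.09, 0.34 ± 0.10 and 0.27 ± 0.10, against 0.87, 0.62 and 0.87 under placebo. Lamp2 was at 0.67 ± 0.09, 0.15 ± 0.10 and -0.02 ± 0.10 in treated glands, against 0.48, 0.62 and 0.49 under placebo. For Lamp2 the 15 d intensities of treated glands, 955 to 1326, covered those of wild type glands, 1148, 1004 and 1301. Hexa was at 0.05 ± 0.18 in treated glands at 15 d, against 0.80 under placebo, and Ctsl at 0.08 ± 0.16, against 0.60. Gla was at 0.52 ± 0.17 (adjusted p = 0.0939) in treated glands and at 1.28 under placebo. A difference that misses the threshold does not show that the levels were equal, and only 3 wild type arrays exist at 15 d. All 3 lie in set A, while 4 of the 6 treated arrays lie in set B. The 15 d differences of treated glands from wild type therefore also contain any difference between the sets.

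The members still higher than wild type after 48 h of RAD001 were the protease gene Ctsd (0.76 ± 0.15), the glycosidase genes Hexa (0.60 ± 0.18) and Fuca2, the ceramidase gene Asah1 (0.61 ± 0.19) and Lamp1 (0.29 ± 0.07). Ctsd was at 2900, 2809, 2562 and 2361 in treated glands, against 1602, 1609, 1579 and 1477 in wild type glands. The 2 lower members were the cathepsin genes Ctsc (-0.81 ± 0.27) and Ctsk (-0.43 ± 0.14). The Ctsc call was lost when any 1 array of the compared groups was left out (adjusted p up to 0.141). That of Ctsk was lost without any 1 of wild type replicates 1, 3 and 4 and RAD001 replicates 1, 4 and 5 (up to 0.0745). Both calls were lost under quantile normalisation and under median scaling. The count of 7 fell to between 2 and 4 without any 1 of wild type replicates 3 and 4 and RAD001 replicates 1, 2 and 4 of 48 h, and Ctsd and Lamp1 kept their calls in each of those fits. The RAD001 difference of Asah1 from transgenic placebo glands was 0.00 ± 0.18 at 48 h and -0.20 ± 0.15 at 15 d, and neither was called.

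**Figure D3:**
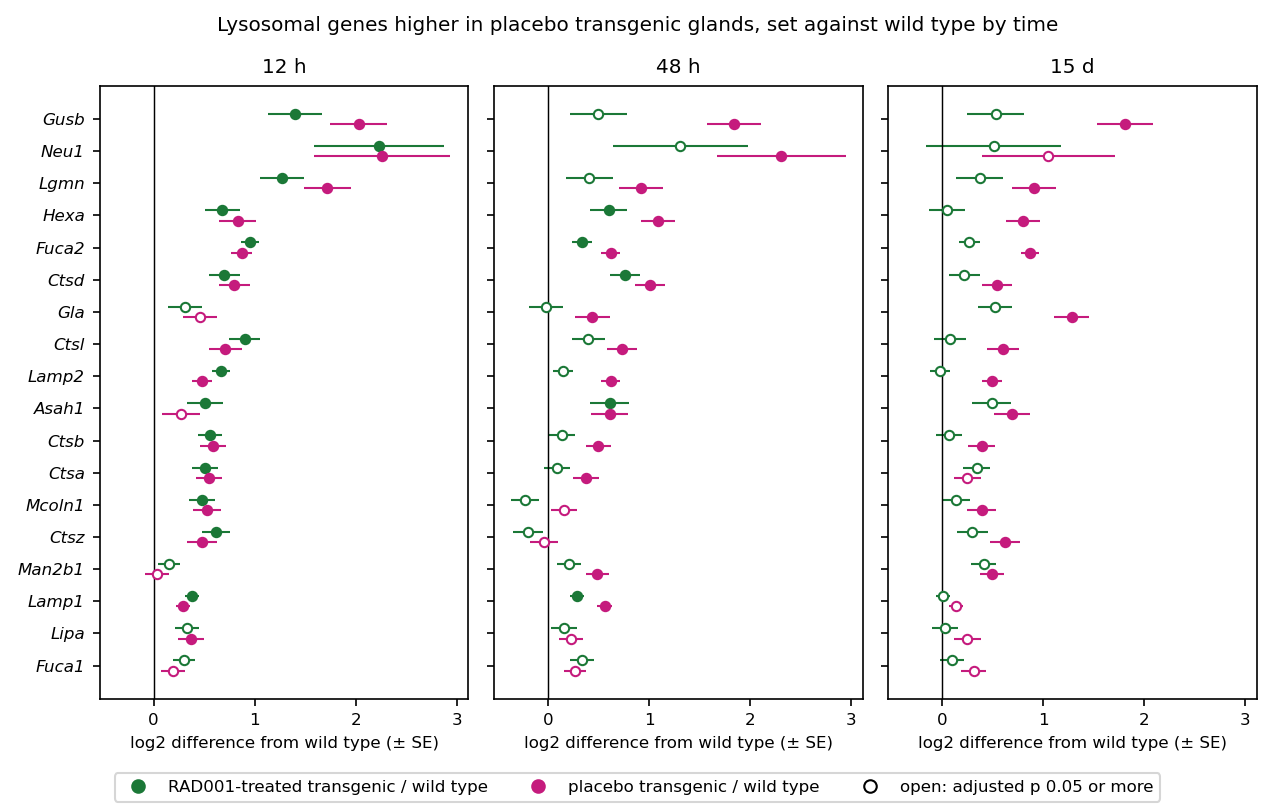
Log2 difference from wild type glands (± SE) at 12 h, 48 h and 15 d for the 18 members that were higher in transgenic glands on placebo, in RAD001-treated (green, upper) and placebo-treated (pink, lower) transgenic glands, with open points for an adjusted p of 0.05 or more. Green and pink points lie close together at 12 h for most genes, and at 15 d all green points are open.

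Several genes are read by more than 1 tested probe set, and these did not always move together. Over all 62 tested member probe sets, 27 were higher and 7 lower in transgenic glands, where 15.1% and 18.4% of all 13574 probe sets were. Both Gusb probe sets (1.89 and 1.16), both Neu1 probe sets (1.87 and 0.48) and all 3 of Lipa (0.25 to 0.29) were higher. Mcoln1 was at 0.36 ± 0.08 by 1416672_s_at and at -0.80 ± 0.11 by 1416671_a_at, and Scarb2 at -0.37 ± 0.06 by 1454704_at and 0.33 ± 0.09 by 1460235_at, with all 4 called. The direction of these membrane protein genes therefore depends on the probe set. Ctsb had 1 of 3 probe sets lower (-0.33 ± 0.07 by 1417491_at), and Psap, the precursor of the saposins, was at -0.11 ± 0.06 and -0.80 ± 0.19. The second of these was called lower. The sulfatase gene Ids was at -0.04 by its brightest probe set and at -0.31 by another, which was called lower here and at 12 h (-0.55). Of the 4 Lamp2 probe sets 2 were higher (0.53 and 0.81) and 2 were not called (0.06 and -0.11). After 15 d of RAD001 the same pair was lower (-0.51 ± 0.08 and -0.77 ± 0.17) and the others were at -0.27 and 0.02. The second Gusb probe set was not called for RAD001 at 48 h (-0.64 ± 0.22, adjusted p = 0.104) or 15 d (-0.42 ± 0.18, adjusted p = 0.193). Which transcript or gene region each probe set reads was not examined.

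**Figure D4:**
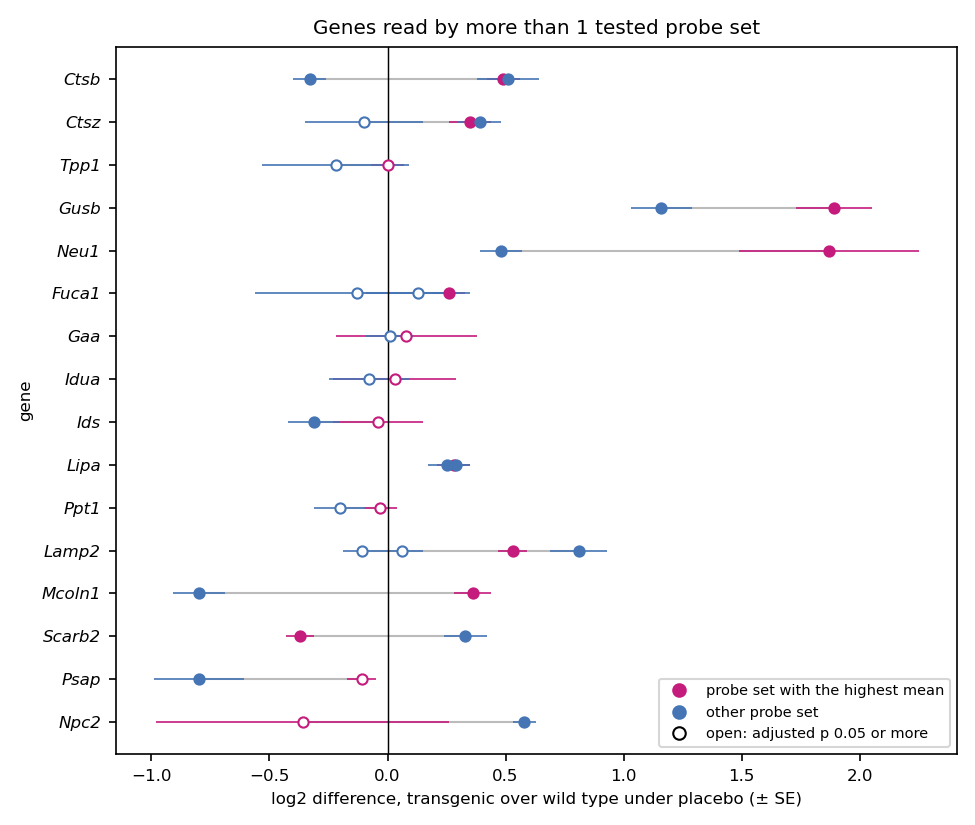
Log2 difference between transgenic and wild type glands under placebo (± SE) for the 16 genes with more than 1 tested probe set, with the probe set of highest mean in pink, the others in blue and open points for an adjusted p of 0.05 or more. Mcoln1, Scarb2 and Ctsb have called points on both sides of 0, while Gusb, Neu1 and Lipa have all points above 0.

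Other genes of the lysosome were read from lists beside the members, and their genotype counts stand beside 14.1% of all genes called higher and 19.0% called lower. The proton pump (V-ATPase) acidifies the lumen, and 10 of its 15 tested genes were higher in transgenic glands and none was lower (median 0.29), led by Atp6v1g1 (0.73 ± 0.07), Atp6v0a1 (0.43 ± 0.06) and Atp6v1a (0.48 ± 0.07). Under RAD001 Atp6v1h was lower at 12 h (-0.40 ± 0.09), Atp6v1a at 48 h (-0.50 ± 0.12) and Atp6v1a, Atp6v0a1 and Atp6v1e1 at 15 d (-0.42 ± 0.10, -0.37 ± 0.09 and -0.29 ± 0.09). The shares of all genes called lower at 12 h, 48 h and 15 d were 0.753%, 1.37% and 3.25%. The summed pump intensity at 15 d ran from 10024 to 10716 in RAD001 glands, from 11138 to 11866 in transgenic placebo glands and from 9900 to 10280 in wild type glands. The RAD001 arrays were thus all below the transgenic placebo arrays and overlapped wild type. Of 14 further hydrolases tested 3 were higher in transgenic glands and 1 was lower, and of 17 further membrane proteins 3 were higher and 1 lower. Sorting genes were higher in 4 of 11 cases, among them the mannose 6-phosphate receptor gene Igf2r (0.44 ± 0.08) and the progranulin gene Grn (0.46 ± 0.06), and Grn was lower after 15 d of RAD001 (-0.33 ± 0.08). Of 20 autophagy genes 4 were higher and 3 lower, and none was called under RAD001 at 12 h, 48 h or 15 d, with medians of 0.10, 0.00 and -0.01.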

How the data were processed

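Total RNA of ventral prostate was read on Affymetrix arrays, per the labels' protocols. The authors deposited linear intensities, 1 per probe set and array, in 2 tables of 22626 probe sets. The sources used here do not give how these were summarised and scaled. Values under 16 were raised to 16 and log2 values taken. Probe sets whose mean lay under the 40th percentile were left out, which kept 13574 and 13576. Values beyond the scanner range (3, in 2 probe sets) were removed, and 28 values below 0 in the smaller table went to the floor. Group differences were fitted with limma 3.58.1 (R 4.3.3) over all groups of a table, with Benjamini-Hochberg adjustment and a threshold of 0.05, and the code was tested on simulated data. Tables were tested apart. A gene is named by its tested probe set of highest mean. Members, gene lists and tests were chosen with earlier results of these data known. All members may be named, with values per array for those called, first those of smallest p in each class, and up to 4 genes of smallest p from each other list. Motifs were searched in RefSeq promoters (GRCm38.p6), matched by symbol for 38 of 43 genes. Alternatives covered the floor, filter, scaling, array weights, replicate number, array sets and leaving out each array. Replicate numbers were not taken as pairs in the main fits. Correlations of same-numbered deviations from group means ran from -0.25 to 0.51, without those of different-numbered arrays to set them against. The highest, 0.43 and 0.51, were between RAD001 and transgenic placebo replicates 1 and 2 of 15 d, which all lie in set A. Whether the numbers pair the samples was therefore not settled.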

Additional observations from a re-analysis of the deposited data

Results flagged for a closer look

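Among the 10 members called in a RAD001 comparison, 90 groups of 4 to 7 arrays were examined for an array that stands apart from the others of its group, and 12 such arrays and genes were found, where chance gives about 1 in 20. The members were read on the same arrays, so the 90 are not separate chances, and the count was not tested against that rate. RAD001 replicate 5 of 12 h was low for Ctsl (1658), Hexa (574) and Neu1 (414). Transgenic placebo replicate 5 of 48 h was low for Ctsl (1754), Gusb (449), Neu1 (809) and Npc2 (2660). Gusb was low in transgenic placebo replicate 3 of 12 h (324), and Gla in RAD001 replicate 3 of 9 d (71.6). In transgenic placebo replicate 9 of 15 d Neu1 was listed at 0 and Sqstm1 was low (693). Lamp2 was high in RAD001 replicate 2 of 48 h (1272).

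The genotype difference varied with time, by an F-test in limma, for Lamp1 (adjusted p = 0.00825), Gla (0.0148), Arsa (0.0151), Ctsz (0.0393) and Man2b1 (0.05). These 5 are 12.5% of the members, where 20.8% of all genes were called. The calls of Ctsz and Man2b1 were lost when any of several arrays was left out, and that of Gla in set A. By the same F-test the RAD001 difference varied with time for Lamp2 (adjusted p = 0.0046) and Fuca2 (0.00684), where 0.388% of all genes were called. The Fuca2 call was lost in set A.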

How the results depend on the processing

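The 111 member results called were recomputed under 2763 alternatives in all, of which 2537 kept the call, 226 lost it and 0 reversed. Counts of called members that moved by over 1.5 times follow. They are given without the calls over all genes in the same fits, so they do not tell whether a change is particular to the members. For the genotype difference at 15 d, 14 became 9 with only the compared groups fitted, 8 with the replicate number as a block, 5 with the array set as a block and 6 in set A. For RAD001 at 12 h, 0 became 3 with array weights. At 48 h 3 became 9 with array weights, 6 with only the compared groups and 6 with the replicate block, and 2 to 5 with an array left out. At 15 d 7 became 1 in set A and 3 in set B without arrays of many zeros, and 6 to 10 with an array left out. At 6 and 9 d 3 became 8 with array weights, 0 with the replicate block, 0 with either day alone and 1 to 3 with a RAD001 array left out. Against wild type, 7 at 48 h became 2 to 7 with an array left out, and 0 at 15 d became 1 with the 60th percentile filter, 1 with quantile normalisation, 6 with array weights, 1 without arrays of many zeros and 0 to 2 with an array left out. For genotype by time 5 became 10 with array weights, 2 with the replicate block, 2 with the array set as a block, 2 in set A and 3 to 6 with an array left out, and for RAD001 by time 2 became 1 in set A. The causes were not tested. Ctsz lost its averaged genotype call without 15 d (0.22, adjusted p = 0.113), and Ctsl its 15 d RAD001 call with the replicate block (-0.38, 0.127). The array set alternatives were chosen after seeing the data. Each of 6 d and 9 d has 1 placebo array, so leaving it out is the other day alone. Dim probe sets such as that of Npc1 could not be tested.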

Other observations

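Of 4 tested inhibitors of cathepsins, 2 were higher in transgenic than in wild type glands under placebo, where 14.1% of all genes were. These were the stefin gene Stfa3 (0.83) and the serpin gene Serpinb6a (0.16). Under RAD001 at 6 and 9 d 1 of 3 tested inhibitors was higher, where 0.280% of all genes were. It was Cst3, which encodes cystatin C, at 0.72. Dnase2a, the acid DNase of the lysosome, was higher under RAD001 at 48 h by 1.26. It was 1 of 2 called higher among 14 further hydrolases, where 1.95% of all genes were higher. Mitf, a relative of Tfeb, was lower under RAD001 at 15 d by 0.40 (log2 -0.40, adjusted p = 0.046). It was the 1 called of 2 tested genes of its list, where 3.25% of all genes were lower. These genes come from lists beside the members.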
